A study of Gallus gallus with 21 samples.

Results

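The mitochondrial ribosomal proteins are the protein subunits of the ribosome inside mitochondria, and their genes carry the symbols MRPL (large subunit) and MRPS (small subunit) followed by a number. Members were all probe sets annotated to a single gene whose symbol begins in this way. There were 77 such probe sets for 62 genes, of 19874 probe sets and 9790 genes in the series. A probe set is a group of short probes on the array that is summarised into 1 value. Of the 62 genes, 5 lie on the Z chromosome (of 486 Z-linked genes with a probe set) and 57 lie on autosomes (of 9278). The study asked whether male birds, which carry a pair of Z chromosomes (ZZ), express Z-linked genes at higher levels than females, which carry a single Z (ZW). Expression was measured on Affymetrix chicken arrays in untreated White Leghorn embryos after 18 days of incubation.

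The groups were male gonads (testes, 4 arrays), female gonads (the left ovary, 3 arrays), male heart (3), female heart (4), male brain (3) and female brain (4), giving 21 arrays from 4 male and 4 female embryos. The left gonad was taken in both sexes, the heart sample was a piece of the apex, and the brain sample was the diencephalon with what remained of other regions once the cerebellum, optic lobes and hemispheres had been removed. Sex was assigned from anatomy. A different kit served for the RNA of gonads than for that of heart and brain, so that kit and tissue cannot be told apart in any comparison of gonads with the soma. Every level below is a log2 intensity. Every fold-change compares the same probe set between groups, except where the probe sets of a gene were averaged as an alternative. Intensities of different probe sets are not comparable as levels of their genes. In bulk tissue, fewer cells of a type and less RNA per cell cannot be told apart.

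Mitochondria keep a small genome of their own, and the mitochondrial ribosome translates its messages into core subunits of the respiratory chain and of ATP synthase. The ribosomal RNA comes from the mitochondrial genome, while all of the ribosome's proteins are encoded in the nucleus, made in the cytosol and imported. Some of these proteins descend from those of the bacterial ribosome, and others are found in mitochondria only. Heart muscle is known as a tissue rich in mitochondria. In birds most Z-linked genes have no partner on the W chromosome, so that females carry a single copy.

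The tissue labels were borne out by marker genes. The mean level of heart muscle markers was 14.5 to 14.6 in heart. Those with values elsewhere averaged 3.53 to 6.57 in gonads (4 markers) and 4.37 to 6.63 in brain (2 markers). The 4 brain markers with values averaged 12.8 to 12.9 in brain, and ELAVL4, the 1 with values in heart, was 7.82 to 8.36 there. Testis markers averaged 11.4 to 11.9 in male and 7.45 to 7.75 in female gonads. Among them DMRT1 differed least, at 13.7 to 13.91 in male and 13.33 to 13.55 in female gonads. Ovary markers averaged 2.24 to 2.35 in male and 10.7 to 11.2 in female gonads. Haemoglobin markers, 2 of the 5 blood genes with values, were bright in every tissue (11.3 to 12.8 in male gonads, 12.9 to 14.3 in female gonads, 14.4 to 14.7 in heart and 12.6 to 13.4 in brain). Adrenal and nerve markers averaged 5.15 to 5.47 in male gonads, and 9.59, 5.66 and 7.56 in the ovaries of embryos 12, 20 and 2. Germ cell markers averaged 8.39 to 9.55 in male and 10.4 to 11.5 in female gonads. Of these, PIWIL1 and SYCP3 did not overlap between the sexes, while DDX4 and DAZL did. DDX4 was 8.53 to 9.55 in male and 9.21 to 10.71 in female gonads, and DAZL 8.92 to 9.97 and 9.51 to 10.62. Brain markers (3 with values in gonads) averaged 4.68 to 5.25 in male and 5.38 to 8.92 in female gonads. The part of blood, germ cells or the other cells in the results below was not tested. The counts of called members and the Z-linked minus autosomal medians were repeated without each embryo.

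The members were widely measured. Where several probe sets stood for a gene (12 members), the one with the highest mean over all arrays represented it. The deposited files leave some probe sets blank in some tissues. The representative probe set had values for 57 members in gonads, 62 in heart and 60 in brain, and for 56 members in all tissues. Those of MRPL20 and MRPS2 were blank in brain. Those of MRPS2, MRPL38, MRPS22, MRPS33 and MRPS35 were blank in gonads, where MRPL38 and MRPS33 had values on another probe set (59 members with any). Counts and medians below rest on representative probe sets. By their place in mammalian ribosomes, 21 members belong to the small subunit and 40 to the large subunit. The remaining member, MRPS36, was named as a ribosomal protein but is known in mammals as a component of the 2-oxoglutarate dehydrogenase complex of the citric acid cycle.

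The Z-linked members MRPL17, MRPS30, MRPS36, MRPS27 and MRPL50 were higher in males than in females in every tissue. A gene was called sex-biased where the fold-change was over 1.5 and the p-value of the limma test, adjusted by Benjamini-Hochberg over all probe sets tested, was under 0.05. On this rule 5 of 5 Z-linked members were male-biased in gonads, where the call took in 54.6% of all Z-linked genes, 4 of 5 in heart (32.5% of all) and 5 of 5 in brain (33.0% of all). In none of the 15 combinations of gene and tissue did the arrays of the sexes overlap. Among all Z-linked genes, 64.9% in gonads, 59.6% in heart and 56.8% in brain were higher in males without overlap. The genes are scattered along Z, at positions 148 (MRPL17), 213 (MRPS30), 287 (MRPS36), 339 (MRPS27) and 725 (MRPL50) of 906 protein-coding genes in chromosome order, and no pair of them are neighbours. The calls in heart were the least firm: 2 were left without embryo 2, 12 or 21 (MRPL17 and MRPS30) and 1 where heart was fitted alone (MRPS30).

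**Figure D1:**
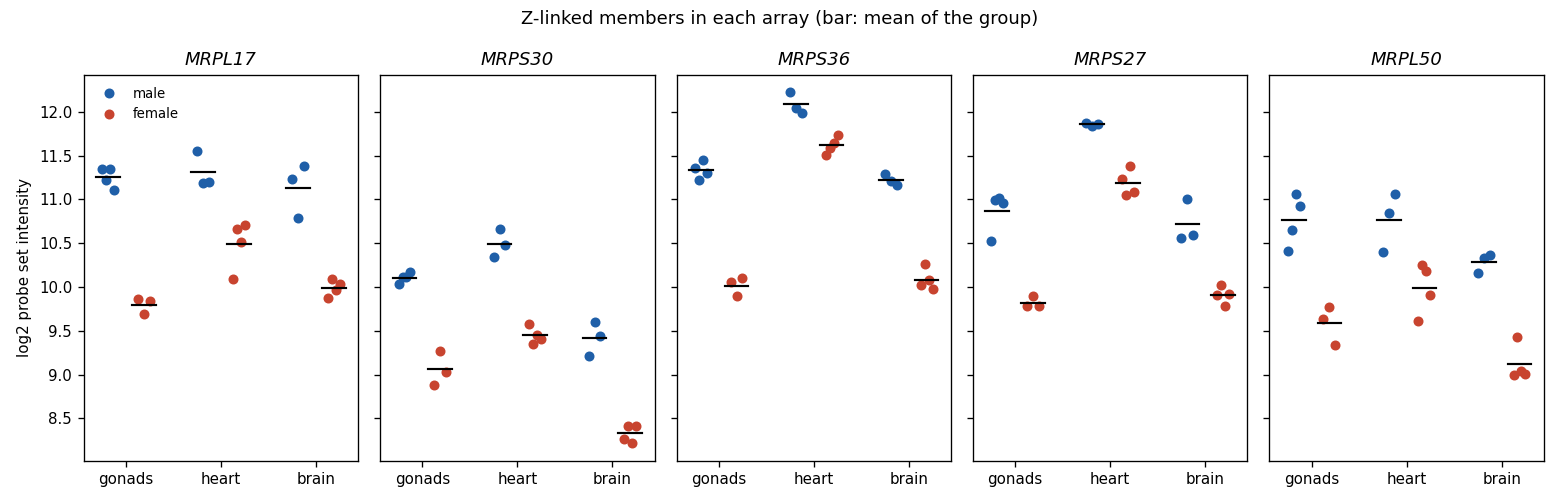
Log2 level of each Z-linked member in every array, 1 panel per gene, by tissue with males (blue) left of females (red); points are arrays and bars are group means. In each of the 15 pairs all male points lie above all female points; heights in different panels belong to different probe sets and are not comparable.

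MRPL17, a large subunit protein with a bacterial relative, had the largest fold-change of the 5 in gonads. Its log2 level was 11.35, 11.23, 11.35 and 11.11 in testes and 9.86, 9.69 and 9.84 in ovaries. In heart it was 11.56, 11.19 and 11.20 in males and 10.09, 10.67, 10.51 and 10.71 in females. In brain it was 11.23, 10.79 and 11.38 in males and 9.87, 10.10, 9.97 and 10.03 in females. The female arrays stayed below every male array, with the narrowest gap in heart. The fold-change was 2.75 in gonads (log2 1.46, SE 0.16, limma adjusted p = 1.68e-06), 1.77 in heart (log2 0.82, SE 0.16, adjusted p = 0.00701) and 2.21 in brain (log2 1.14, SE 0.16, adjusted p = 0.000246). The gene is covered by 3 probe sets, and each was called male-biased in every tissue, with log2 fold-changes of 1.28 to 1.46 in gonads, 0.82 to 0.86 in heart and 1.14 to 1.26 in brain.

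MRPS30 bears a small subunit name, but in mammals its protein sits in the large subunit, and it has no bacterial relative. On the log2 scale it stood at 10.03, 10.11, 10.11 and 10.17 in testes and 8.89, 9.27 and 9.03 in ovaries. It was 10.34, 10.66 and 10.48 in male hearts and 9.58, 9.35, 9.46 and 9.41 in female hearts. It was 9.21, 9.61 and 9.44 in male brains and 8.27, 8.41, 8.22 and 8.42 in female brains. The sexes stood apart by about the same distance in every tissue. The log2 fold-change was 1.05 in gonads (2.06-fold, adjusted p = 3.08e-06), 1.05 in heart (2.07-fold, adjusted p = 3.68e-05) and 1.09 in brain (2.13-fold, adjusted p = 2.20e-05), with an SE of 0.12. It was also the member whose call in heart survived every alternative processing tried.

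MRPS36 was the Z-linked member whose sex difference varied most between tissues. Its log2 level was 11.36, 11.22, 11.45 and 11.30 in testes and 10.06, 9.89 and 10.10 in ovaries. It was 12.22, 12.04 and 11.99 in male hearts and 11.51, 11.59, 11.65 and 11.73 in female hearts. It was 11.29, 11.21 and 11.16 in male brains and 10.02, 10.26, 10.08 and 9.97 in female brains. Heart arrays of both sexes were the highest and lay closest together. The fold-change was 2.49 in gonads (log2 1.32, adjusted p = 3.59e-08) and 2.20 in brain (log2 1.14, adjusted p = 1.72e-06). In heart it was 1.38 (log2 0.47, adjusted p = 0.0198), under the limit of 1.5 for a call.

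MRPS27 is a small subunit protein of mitochondria only, from the family of RNA-binding proteins with pentatricopeptide repeats. The log2 levels were 10.52, 10.99, 11.01 and 10.96 in testes and 9.79, 9.90 and 9.78 in ovaries. It was 11.87, 11.83 and 11.86 in male hearts and 11.24, 11.05, 11.38 and 11.08 in female hearts. It was 10.56, 11.01 and 10.60 in male brains and 9.91, 10.03, 9.79 and 9.91 in female brains. The lowest testis was embryo 16, which still lay above every ovary. The fold-change was 2.07 in gonads (log2 1.05, adjusted p = 1.13e-05), 1.59 in heart (log2 0.67, adjusted p = 0.0106) and 1.76 in brain (log2 0.81, adjusted p = 0.00160).

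MRPL50, a large subunit protein of mitochondria only, had wide spreads between arrays in gonads and heart. Its log2 level was 10.41, 10.65, 11.07 and 10.93 in testes and 9.64, 9.77 and 9.34 in ovaries. It was 10.40, 10.85 and 11.06 in male hearts and 9.61, 10.25, 10.18 and 9.90 in female hearts. It was 10.17, 10.34 and 10.36 in male brains and 8.99, 9.43, 9.04 and 9.01 in female brains. In heart the lowest male and the highest female were close to each other. The fold-change was 2.26 in gonads (log2 1.18, SE 0.20, adjusted p = 0.000149), 1.72 in heart (log2 0.78, adjusted p = 0.0473) and 2.25 in brain (log2 1.17, adjusted p = 0.00160). A second, dimmer probe set of MRPL50, with group means of 3.85 to 5.63, gave log2 fold-changes of 0.94 in gonads (adjusted p = 0.278), 0.58 in heart (adjusted p = 0.855) and 1.56 in brain (adjusted p = 0.363) and was not called, and its male and female arrays overlapped.

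Set among all Z-linked genes with values, ordered by male-to-female fold-change, the 5 members stood in the upper part in gonads and brain. In gonads MRPL17 ranked 59 of 410, MRPS36 77, MRPL50 106, MRPS27 137 and MRPS30 140. In brain MRPL50 ranked 37 of 403, MRPL17 42, MRPS36 43, MRPS30 61 and MRPS27 154. In heart the ranks spread further, with MRPS30 at 51 of 379, MRPL17 at 123, MRPL50 at 136, MRPS27 at 170 and MRPS36 at 231. With 39.05% of Z-linked genes below it, MRPS36 in heart was the only one of the 15 with more genes above it than below.

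The autosomal members had medians near 0 between the sexes. In gonads the median log2 fold-change of male over female was 1.18 for the Z-linked and 0.07 for the autosomal members, where all Z-linked genes had 0.74 and all autosomal genes -0.01. In heart the medians were 0.78 for the Z-linked and -0.01 for the autosomal members, where all Z-linked genes had 0.60 and all autosomal genes 0.02. In brain they were 1.14 for the Z-linked and 0.07 for the autosomal members, where all Z-linked genes had 0.66 and all autosomal genes -0.01. The Z-linked median of the members thus exceeded their autosomal median by 1.10 in gonads, 0.79 in heart and 1.07 in brain. Leaving out MRPS36, which is not a ribosomal protein in mammals, gave 1.04, 0.81 and 1.05.

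The contrast could be seen in single arrays. For each member the level was taken relative to the mean of the male and female group means of that tissue, and the median over autosomal members was subtracted from the median over Z-linked members. The difference was 0.43 to 0.68 in testes and -0.57 to -0.38 in ovaries. It was 0.30 to 0.39 in male hearts and -0.44 to -0.26 in female hearts. It was 0.41 to 0.63 in male brains and -0.56 to -0.46 in female brains. The sexes were separate on this measure in every tissue, which largely follows from the lack of overlap in each Z-linked member. All Z-linked genes did the same: their median, without that subtraction, was 0.34 to 0.40 in testes and -0.40 to -0.335 in ovaries. It was 0.25 to 0.32 in male and -0.36 to -0.21 in female hearts. In brain it was 0.28 to 0.38 in males and -0.38 to -0.25 in females.

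**Figure D2:**
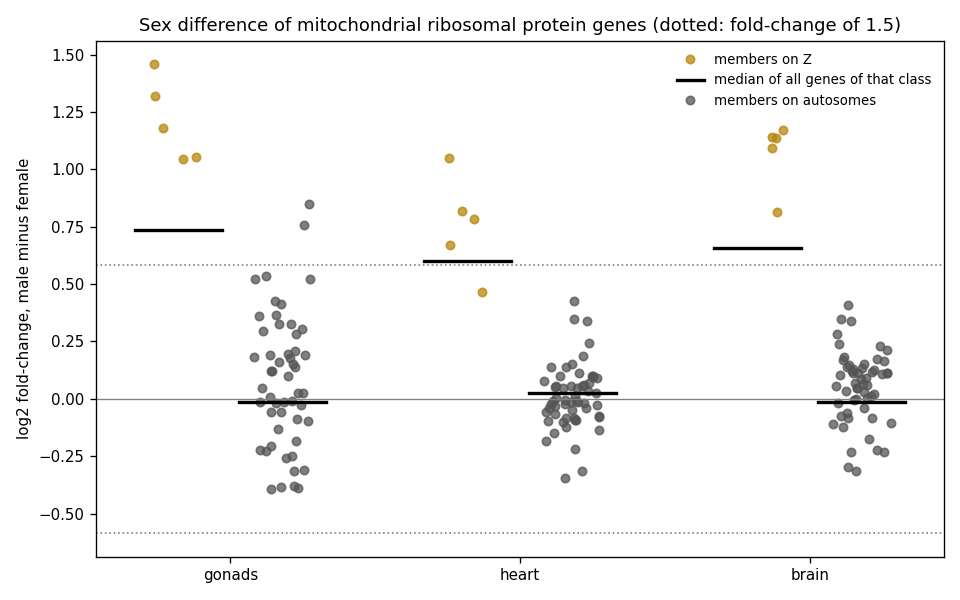
Log2 fold-change of male over female for every member in gonads, heart and brain; gold points are Z-linked members, grey points are autosomal members, horizontal bars are medians of all Z-linked or all autosomal genes, and dotted lines mark a fold-change of 1.5. Z-linked members lie above the upper dotted line in all but 1 case, MRPS36 in heart, while autosomal members gather around 0.

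Of the autosomal members, 2 of 52 were male-biased in gonads and none was female-biased, where the calls took in 10.4% (male-biased) and 14.5% (female-biased) of all autosomal genes. In heart 0 of 57 were male-biased (0.134% of all autosomal genes) and 0 female-biased (0.107%). In brain 0 of 55 were male-biased (0.0386% of all autosomal genes) and 0 female-biased (0.129%). Of all 57 members with values, 7 were male-biased in gonads (12.6% of all genes), and the count was 6 without embryo 2 and 7 without embryo 12. The ovaries of embryos 2 and 12 had the higher adrenal and nerve markers. Each run kept the other of these ovaries, and the part of such tissue was not tested. Without the limit on fold-change, the adjusted p of limma passed for 9 autosomal members higher in testes and 4 higher in ovaries (13.9% and 18.4% of all autosomal genes), and for none in heart (0.147% and 0.107%) or brain (0.0386% and 0.129%). Groups did not overlap for 15 autosomal members higher in testes and 5 higher in ovaries (18.3% and 22.2% of all), for 1 in each direction in heart (4.16% and 3.1%), and for 4 higher in male and 1 higher in female brain (3.08% and 3.51%).

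The male-biased autosomal members were MRPL22 and MRPS6. MRPS6 on chromosome 1 is a small subunit protein with a bacterial relative. Its log2 level was 12.88, 12.68, 12.65 and 12.12 in testes and 11.85, 11.77 and 11.85 in ovaries. The ovaries were close together and every testis lay above them, with a fold-change of 1.69 (log2 0.76, SE 0.20, adjusted p = 0.00756). In heart MRPS6 was 12.24, 12.91 and 12.68 in males and 12.96, 12.57, 12.63 and 12.66 in females, and in brain 11.76, 11.72 and 11.96 in males and 11.59, 12.13, 11.42 and 12.12 in females. There the groups overlapped, with log2 fold-changes of -0.09 in heart (adjusted p = 0.949) and -0.0039 in brain. In the main fit, the difference in sex effect from gonads did not pass for heart (limma adjusted p = 0.0525) or brain (0.0859). The call of MRPS6 in gonads was lost in 2 of 16 alternatives.

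MRPL22 on chromosome 13, whose bacterial relative lines the tunnel through which the new peptide leaves the ribosome, had low intensities. Its log2 level was 7.44, 7.16, 6.87 and 7.61 in testes and 6.80, 6.17 and 6.30 in ovaries. The lowest testis and the highest ovary nearly met, and the fold-change was 1.80 (log2 0.85, SE 0.27, adjusted p = 0.0201). The call was lost when embryo 2, 9 or 20 was left out. The log2 fold-change was 0.24 in heart (adjusted p = 0.859) and 0.24 in brain (adjusted p = 0.835).

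The members that passed the adjusted p in gonads below the fold limit included MRPL9 (log2 fold-change 0.54), MRPL32 (0.52), MRPL43 (0.52), MRPL45 (0.43), MRPL46 (0.36), MRPL24 (0.33) and MRPL13 (0.30), all of the large subunit and higher in testes. Those higher in ovaries were MRPS17 (-0.39) and MRPS26 (-0.38) of the small subunit, and MRPL27 (-0.38) and MRPS18A (-0.31) of the large subunit. With Z-linked members counted and no fold limit, 11 of 39 large subunit members passed as higher in testes and 2 as lower. For the small subunit these were 2 and 2 of 17, and for all genes 1335 and 1483 of 8262. The difference between subunits was not tested.

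A difference between tissues in the sex effect itself was tested as an interaction in the same fit. Between gonads and heart 3 of 57 members passed an adjusted p of 0.05, against 16.0% of all genes. MRPS36 had a larger sex effect in gonads than in heart by 0.85 (log2, SE 0.15, adjusted p = 0.000639). MRPL9, a large subunit protein with a bacterial relative, had log2 fold-changes of male over female of 0.54 in gonads and -0.03 in heart (difference 0.57, SE 0.18, adjusted p = 0.0361). MRPS17, a small subunit protein with a bacterial relative, was lower in testes than ovaries, with log2 fold-changes of -0.39 in gonads and 0.14 in heart (difference -0.53, SE 0.17, adjusted p = 0.0449). No member passed between gonads and brain (14.9% of all genes) or between heart and brain (0.0292%). MRPS36 passed under every alternative run, and it alone remained when embryo 2, 16, 20 or 21 was left out. With the embryo as a replicate block, 6 members passed between gonads and heart (MRPL17, MRPL46, MRPL9, MRPS17, MRPS36 and MRPS6) and 1, MRPS17, passed between gonads and brain. Between gonads and brain 1 member also passed without embryo 9 (MRPS6) and without embryo 12 (MRPS17).

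In MRPL9 the testes had 9.63, 9.21, 9.45 and 9.29 and the ovaries 8.88, 8.80 and 8.90, without overlap. Male hearts had 10.04, 10.05 and 10.10 and female hearts 9.95, 10.11, 9.98 and 10.34. The order of the sexes was clear in gonads and mixed in heart. In MRPS17 the testes had 11.74, 11.85, 11.88 and 11.84 and the ovaries 11.92, 12.39 and 12.32. Male hearts had 11.56, 11.55 and 11.58 and female hearts 11.46, 11.38, 11.44 and 11.41. Here the groups did not overlap in either tissue, and the direction was opposite, although the difference in heart did not pass the test.

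Between tissues, most members were highest in heart. Of the 56 members with values in every tissue, 49 had their highest mean in heart (87.5%, against 31.0% of all genes). The highest mean was in gonads for 4 (42.5% of all genes) and in brain for 3 (26.5% of all genes). The order heart over gonads over brain held for 31 (19.7% of all genes). The order heart over brain over gonads held for 18 (11.2% of all genes). These orders rest on the values as deposited. What separates them is gonads over brain, where the members' median log2 fold-change was 0.15 as deposited and -0.10 with arrays centred. The comparisons that follow share arrays with each other, and fold-changes are the mean over the sexes.

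Heart over brain gave the largest shift. Of 60 members, 39 were called higher and 1 lower in heart (34.7% and 24.2% of all genes), with a median log2 fold-change of 0.85 (1.80-fold) against 0.21 for all genes. Heart and brain arrays did not overlap for 45 members higher and 1 lower in heart (33.4% and 22.8% of all genes). In the large subunit 26 of 39 members were higher and none was lower, with a median of 0.97. In the small subunit 12 of 20 were higher and 1 was lower, with a median of 0.74. Members found in mitochondria only had a median of 1.06, with 21 of 27 higher and none lower. Members with a bacterial relative had a median of 0.67, with 17 of 32 higher and 1 lower. The difference between these classes was not tested.

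MRPL37 on chromosome 8, a large subunit protein of mitochondria only, had the largest fold-change of heart over brain. Its log2 level over the 7 arrays of each tissue (lowest, median, highest) was 10.23, 10.81 and 10.88 in gonads, 11.78, 12.26 and 12.41 in heart, and 9.44, 9.97 and 10.35 in brain. Heart did not overlap with the other tissues. The level in heart was 4.78-fold that in brain (log2 2.26, SE 0.15, adjusted p = 1.85e-10), and gonads were lower than heart by 2.86-fold (log2 -1.52, adjusted p = 6.80e-08). Its second probe set was called in the same directions, at 2.08 for heart over brain and -1.68 for gonads over heart.

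MRPS9 on chromosome 1, a small subunit protein with a bacterial relative, had 8.77, 9.12 and 9.29 in gonads, 10.38, 10.53 and 10.66 in heart, and 8.68, 8.88 and 9.14 in brain. MRPL2 on chromosome 3, whose bacterial relative lies beside the site where peptide bonds are formed, had 9.45, 9.61 and 9.80 in gonads, 11.14, 11.32 and 11.51 in heart, and 9.60, 9.73 and 9.88 in brain. Both were at like levels in gonads and brain and stood out in heart without overlap. Heart over brain was 3.04-fold for MRPS9 (log2 1.60, SE 0.09, adjusted p = 1.22e-11) and 2.98-fold for MRPL2 (log2 1.58, SE 0.07, adjusted p = 1.22e-12). Gonads over heart was -1.45 for MRPS9 (adjusted p = 8.11e-11) and -1.70 for MRPL2 (adjusted p = 8.31e-13), the lowest of any member, while MRPL2 in gonads over brain was -0.12 (adjusted p = 0.141).

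MRPS35 on chromosome 1, a small subunit protein of mitochondria only, was blank in gonads and had 10.15, 10.26 and 10.39 in heart and 8.46, 8.71 and 9.05 in brain (2.94-fold, log2 1.55, SE 0.10, adjusted p = 5.89e-09). MRPL57, also on chromosome 1 and of the large subunit, had 10.39, 10.56 and 10.78 in gonads, 11.33, 11.55 and 11.79 in heart and 9.82, 9.86 and 10.43 in brain. For both, every heart array lay above every brain array, and for MRPL57 heart over brain was 2.81-fold (log2 1.49, SE 0.12, adjusted p = 2.36e-09).

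Z-linked members took part in this difference: MRPS30 (log2 1.10), MRPS36 (1.20), MRPS27 (1.21) and MRPL50 (0.68) were called higher in heart than brain, and MRPL17 (0.34) was not. For MRPL50 the second probe set went the other way, at -0.71, and was not called.

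Gonads over heart gave the reverse picture. Of 57 members, 1 was called higher and 21 lower in gonads (31.4% and 21.1% of all genes), with a median of -0.46 against 0.18 for all genes. The large subunit gave 0 higher and 15 lower of 39, the small subunit 1 higher and 5 lower of 17. After MRPL2 the lowest were MRPL15 on chromosome 2, with 8.80, 9.33 and 9.64 in gonads and 10.58, 10.89 and 11.12 in heart (log2 -1.60, adjusted p = 5.30e-09), and MRPL18 on chromosome 3, with 9.65, 9.71 and 9.93 in gonads and 11.23, 11.29 and 11.52 in heart (log2 -1.57, adjusted p = 2.95e-12). Both are large subunit proteins with bacterial relatives, and in neither did the tissues overlap. The others included MRPL12 (-1.33) and MRPL10 (-1.24), whose relatives form the stalk that recruits translation factors, MRPL46 (-1.12), MRPL39 (-1.12), MRPL54 (-1.04), MRPS12 (-0.88) and MRPL58 (-0.62), a large subunit protein that can release stalled peptides. MRPS27 and MRPS36 were the Z-linked members called, at -1.18 each. Without embryo 12, the members called higher in gonads numbered 2.

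Gonads over brain gave the smallest shift. Of 56 members, 12 were called higher and 0 lower in gonads (36.6% and 22.6% of all genes), with a median of 0.15 against 0.25 for all genes. Without the fold limit 24 were higher and 9 lower (47.9% and 29.9% of all genes), and without embryo 2 the calls were 14 higher and 1 lower. The sign of the members' median depended on scaling. With each array centred on the median of its autosomal probe sets, the split was 4 higher and 7 lower and the median was -0.10. Centring moved this comparison by 0.25 on the log2 scale. All genes moved with it, to 1950 higher and 2009 lower of 6966 and a median of -0.0013. The members' median lay below that of all genes both with and without centring. Centring left the direction of the other comparisons in place. Gonads over heart had 1 higher and 29 lower (moved by 0.14), where all genes had 1817 and 1708 of 6991. Heart over brain had 36 higher and 1 lower (moved by 0.12), where all genes had 2108 and 1845 of 6842.

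MRPS10 on chromosome 3, a small subunit protein with a bacterial relative, led the members higher in gonads than brain. Its log2 level was 10.04, 10.49 and 10.74 in gonads, 10.35, 10.55 and 10.80 in heart and 9.14, 9.32 and 9.50 in brain. Gonads and heart overlapped, and brain stood below both. Gonads over brain was 2.15-fold (log2 1.10, SE 0.09, adjusted p = 6.03e-09), heart over brain was 1.23 on the log2 scale, and gonads over heart was -0.12 (adjusted p = 0.254). MRPL55 (log2 1.03, adjusted p = 2.78e-07), MRPL51 (0.94, adjusted p = 3.93e-05), MRPL24 (0.88, adjusted p = 2.95e-09) and MRPL44 (0.82, adjusted p = 1.63e-06) followed, all of the large subunit, and MRPL44 is known in mammals for a domain like that of ribonuclease III. The other members called were MRPL37 (0.74), MRPS21 (0.71), MRPS30 (0.71), MRPL13 (0.68), MRPS34 (0.65), MRPL53 (0.64) and MRPS17 (0.60). The second probe sets of MRPL37 (0.40), MRPS34 (0.57) and MRPL53 (0.19) were not called in this comparison. Conversely, those of MRPS7 (0.98) and MRPS16 (1.15) were called higher in gonads, while their representatives (0.40 and -0.27) were not called. Members past the adjusted p and lower in gonads were led by MRPL19 (-0.55) and MRPS23 (-0.53), under the fold limit.

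MRPS16 on chromosome 21, a small subunit protein with a bacterial relative, was the single member called lower in heart than brain and the single member called higher in gonads than heart. Its brightest probe set had 9.51, 9.59 and 10.06 in gonads, 8.41, 8.69 and 9.11 in heart and 9.55, 9.99 and 10.18 in brain. Heart lay below both other tissues without overlap, with log2 fold-changes of 0.91 for gonads over heart (adjusted p = 3.33e-06) and -1.19 for heart over brain (adjusted p = 9.04e-08). The gene is covered by 4 probe sets, and they disagreed. The second gave -0.62 for gonads over heart (adjusted p = 0.000496) and 1.77 for heart over brain (adjusted p = 1.14e-09). The next gave -0.79 and 0.92, both called. The dimmest, with tissue means between 4.84 and 4.98, was not called. The direction of MRPS16 is therefore uncertain, and which transcripts each probe set matches was not tested.

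**Figure D3:**
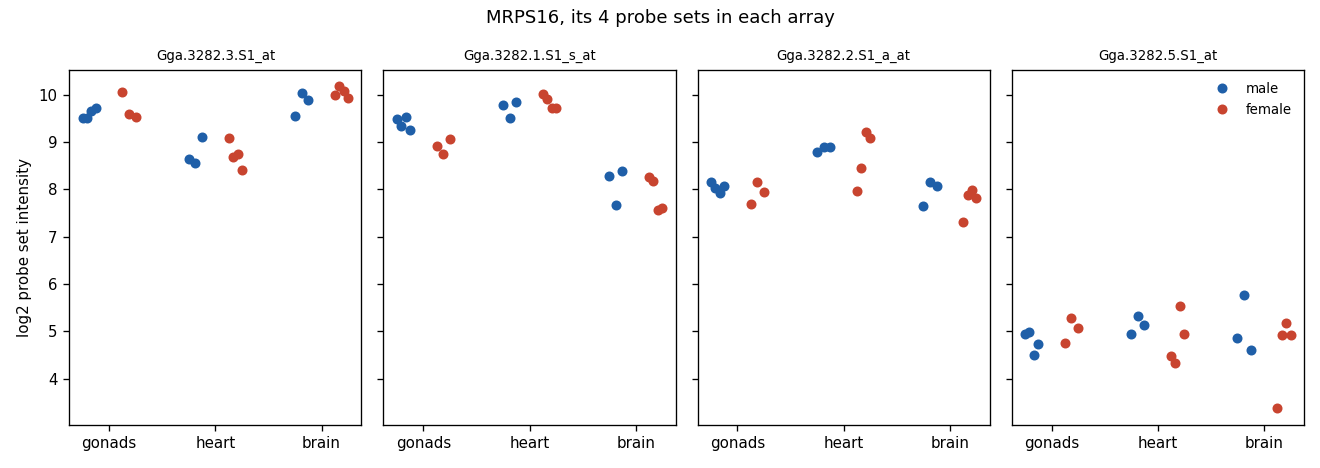
Log2 level of the 4 probe sets of MRPS16 in every array, by tissue and sex, with males left of females. The first probe set is lowest in heart, the next 2 are highest in heart, and the last is dim in all tissues.

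Some probe sets had intensities near the low end of the scale. MRPL33 on chromosome 3, a large subunit protein with a bacterial relative, had 4.08, 4.40 and 4.44 in gonads, 4.48, 4.49 and 4.78 in heart and 4.41, 4.42 and 4.44 in brain. These values lie near 4, the lowest mean of the brighter sex among probe sets with values, so that they hold little room to show a difference. MRPS25, a small subunit protein of mitochondria only, had 5.84, 6.08 and 6.21 in gonads, 6.17, 6.54 and 7.01 in heart and 5.36, 5.63 and 5.78 in brain. MRPS6 in heart over brain was 0.84 and called, but its second probe set, blank in gonads, gave -0.07 and was not called. In the same comparison MRPL53 (0.86), MRPS33 (0.74) and MRPS34 (0.60) were called, but their second probe sets (0.05, 0.44 and 0.48) were not. Both probe sets of MRPL37, MRPL38, MRPL9 and MRPS7 were called higher in heart.

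Members that lie beside each other in the genome were few. MRPS11 and MRPL46 are adjacent on chromosome 10, and MRPL14 and MRPS18A on chromosome 3 have 2 protein-coding genes between them.

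Genes listed for mitochondrial translation and ribosome assembly, or for mitochondrial DNA maintenance and transcription, were also called higher in heart than brain more often than lower. Of all genes, 34.7% were called higher and 24.2% lower in heart than brain. In the list of mitochondrial aminoacyl-tRNA synthetases, enzymes that charge tRNAs, 11 and 0 of 13 were called (median 0.89, for example LARS2 at 1.43 and FARS2 at 1.41). That list also holds QRSL1. The counts were 6 and 0 of 11 for translation factors (median 0.65, MTIF3 at 1.63), 9 and 1 of 16 for ribosome assembly factors (median 0.73, TFB1M at 1.85 and DHX30 at -2.02), and 10 and 1 of 14 for mitochondrial DNA maintenance and transcription (median 0.91, TFAM at 1.34). Of 4 further ribosomal proteins that carry other symbols, 2 were higher and 0 lower (median 0.79, AURKAIP1 at 1.26 and DAP3 at 1.05). In gonads over brain, 36.6% of all genes were called higher and 22.6% lower. Here the counts were 7 and 0 of 11 translation factors, and 8 and 1 of 15 genes of DNA maintenance and transcription. They were 3 and 0 of 13 synthetases, 4 and 1 of 16 assembly factors, and 0 and 1 of the 4 further ribosomal proteins.

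In the lists of the respiratory chain and of the cytosolic ribosome, gonads took other places among the tissues. Of all genes, 34.7% were called higher and 24.2% lower in heart over brain (median 0.21). These shares were 31.4% and 21.1% in gonads over heart (median 0.18), and 36.6% and 22.6% in gonads over brain (median 0.25). Of the nuclear genes of the respiratory chain and ATP synthase, 47 were higher and 2 lower of 60 in heart over brain (median 0.83), 0 and 56 of 59 in gonads over heart (median -1.21), and 1 and 26 of 56 in gonads over brain (median -0.53). Of the cytosolic ribosomal proteins, 27 were higher and 0 lower of 56 in heart over brain (median 0.57), 1 and 0 of 56 in gonads over heart (median 0.29), and 41 and 0 of 52 in gonads over brain (median 0.90). The members, with a median of -0.46 in gonads over heart and 0.15 in gonads over brain, lay between these lists, and the difference between lists was not tested. Among genes with values in every tissue, the mean level was highest in heart for 54 of 56 respiratory chain genes (31.0% of all genes). It was highest in gonads for 52 of 52 cytosolic ribosomal proteins (42.5% of all genes).

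**Figure D4:**
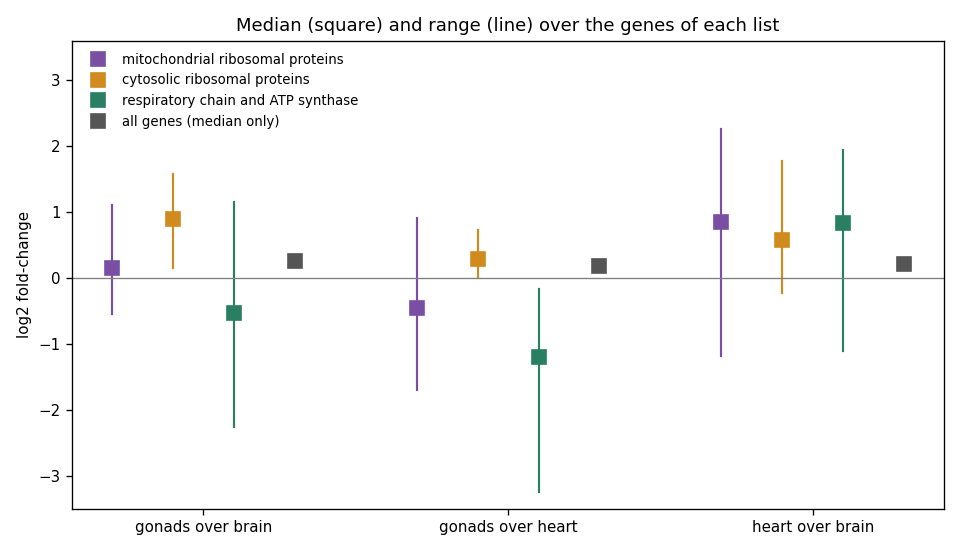
Median log2 fold-change (squares) and range (lines) of the mitochondrial ribosomal proteins, the cytosolic ribosomal proteins and the respiratory chain with ATP synthase in each comparison of tissues, with the median of all genes marked. In gonads over brain and gonads over heart the mitochondrial ribosomal proteins lie between the other lists.

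By sex, 1 gene of the lists for mitochondrial translation, ribosome assembly, and mitochondrial DNA maintenance and transcription was called in heart or brain. It was the translation factor GFM2, which helps to split the ribosome after translation in mammals. In heart this was 1 of 11 translation factors, with 0 of 14 synthetases, 18 assembly factors and 16 genes of DNA maintenance and transcription. In brain it was 1 of 11, with 0 of 13, 16 and 16. Among all genes, 133 were male-biased and 20 female-biased of 7873 in heart, and 136 and 20 of 8209 in brain. GFM2 is Z-linked and had log2 fold-changes of male over female of 0.98 in gonads (adjusted p = 9.90e-05), 0.81 in heart (adjusted p = 0.00722) and 0.95 in brain (adjusted p = 0.00139). In gonads 2 of 13 genes in the list of aminoacyl-tRNA synthetases were male-biased and 0 female-biased, against 10.4% and 14.5% of all autosomal genes. They were NARS2 (1.25, with overlapping arrays) and YARS2, the mitochondrial tyrosyl-tRNA synthetase (1.08). The counts were 1 and 1 of 18 assembly factors (MRM3 at 0.61 and MTG2, a GTPase, at -1.24). They were 1 and 1 of 11 translation factors (GFM2, and MTIF2 at -0.75). For DNA maintenance and transcription they were 0 and 2 of 16 (TOP1MT at -0.87 and POLG at -0.83).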

How the data were processed

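Per the labels and the study's methods, RNA from gonads, heart and brain was hybridised to Affymetrix chicken arrays, and 3 of the planned arrays had failed quality control. The authors deposited log2 values made with GCRMA background adjustment, quantile normalization and median polish in R 2.4.1, with blanks for some probe sets in some tissues (values for 16499 probe sets in gonads, 15282 in heart and 16113 in brain). The methods describe a filter on mean level and MAS5 present calls, but the numbers of probe sets with values are not those the methods give, so that a blank cannot be read as not expressed. Values spanned 1.677 to 16.15. The number of arrays limits the precision. Quantile normalization gives arrays a common scale, so that shifts shared by most genes can be removed. The deposited values still differed in centre. The median of autosomal probe sets with values in every tissue was 8.24 to 8.34 in gonads and 7.97 to 8.09 in brain. Whether this is a shift shared by most genes was not tested. Probe sets were named from the platform annotation through the gene table of assembly GRCg7b, used for names, chromosome and gene order only: 16063 were placed by gene ID, 132 by symbol, 85 named several genes, 3592 named none and 2 were not in the table. Of 73 genes with the members' symbols in that table, 62 had a probe set, and 1 probe set that names MRPS7 with another gene was left out. The brightest probe set over all arrays stood for a gene.

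Groups came from the sample titles. A linear model with 1 mean for each of the 6 groups was fitted to all 21 arrays and all probe sets with limma 3.58.1 (R 4.3.3), and p-values were adjusted by Benjamini-Hochberg over all probe sets tested per contrast. Sex is male minus female, and tissue contrasts average the sexes. Each array is from a separate embryo within its group. The sex contrasts of the model were tested on simulated arrays that were independent of each other, without pairing by embryo. The tissue and interaction contrasts were not tested in this way. The embryo number pairs arrays across tissues: deviations from group means correlated between arrays of an embryo by 0.164 to 0.455 (median 0.276, 19 pairs) and between different embryos by -0.433 to 0.199 (median -0.105, 54 pairs). Same-numbered arrays were taken as the same embryo, as the methods describe tissues from each embryo. The fit with embryo as a random block (consensus correlation 0.121) is an alternative. Other alternatives were each tissue or sex alone, array weights, centring on the autosomal median, a trended prior, the mean of a gene's probe sets, a minimum level of 6, other fold limits, every probe set counted on its own, the mean over members, and leaving out each embryo. Leaving out MRPS36 or MRPS16, and requiring all probe sets of a gene to be called alike, were chosen after seeing the data.

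Named members were those on Z, those called with arrays that do not overlap (up to 6 per direction by sex and 5 by tissue, largest first), the 3 with the highest and 3 with the lowest intensity per tissue (used only to choose names), those whose probe sets were called in opposite directions and those past the test between tissues. Others stand beside counts and were chosen after their values were seen. The members and gene lists were chosen with earlier results of these data known. PTCD1 was removed from the ribosomal proteins under other symbols after its values were seen, because its protein is not known as a subunit. Subunit and origin follow mammalian ribosomes. Python 3.11.15 and pandas 2.3.3 were used for summaries. No sequences are printed.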

Additional observations from a re-analysis of the deposited data

Results flagged for a closer look

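The 25 named members were checked for a single array far from the rest in testes, female heart and female brain, which have 4 arrays each. Of 74 such groups of 4 arrays, 6 had such an array, where chance gives about 1 in 20 groups. These groups share arrays and are not independent. Embryo 16 was low in testes for MRPL37 (10.52, the others 10.81 to 10.86) and for MRPS27 (10.52, the others 10.96 to 11.01). Embryo 12 was high in female brain for MRPL50 (9.43, the others 8.99 to 9.04) and in female heart for MRPL33 (4.56, the others 4.48 to 4.49). Embryo 20 was low in female brain for MRPL44 (8.08, the others 8.51 to 8.52). Embryo 2 was high in female heart for MRPS25 (7.01, the others 6.54 to 6.60).

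The effect of sex differed between gonads and heart for 3 members by the interaction test of the limma fit. The difference in log2 fold-change, gonads minus heart, was 0.85 for MRPS36 (adjusted p = 0.000639), 0.57 for MRPL9 (adjusted p = 0.0361) and -0.53 for MRPS17 (adjusted p = 0.0449).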

How the results depend on the processing

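Over 56 results for single members, 934 values were computed under alternatives, of which 878 kept their direction and side of the threshold, 53 lost the call (in 19 results) and 3 reversed. The reversals came from averaging a gene's probe sets, which gave -0.016 for MRPL50 in heart over brain, and -0.14 in gonads over heart and 0.41 in heart over brain for MRPS16. In gonads 14 of 57 members were male-biased and 4 female-biased without a fold limit, where all genes gave 1335 and 1483 of 8262. Male-biased calls in gonads numbered 6 to 9 when an embryo was left out. In heart male-biased calls numbered 1 with the tissue fitted alone, 1 at a fold-change over 2, and 2 to 3 when an embryo was left out, and MRPL50 lost its call in 10 of 16 alternatives. In brain they numbered 5 to 6 when an embryo was left out. Members higher in gonads than brain numbered 4 with centring (1950 of 6966 among all genes) and 2 at a fold-change over 2. They numbered 24 without a fold limit (47.9% of all genes) and 10 to 14 when an embryo was left out. Members lower in gonads than brain numbered 7 with centring (2009 of 6966 among all genes) and 1 with probe sets averaged. They numbered 9 without a fold limit (29.9% of all genes), 1 in females alone and 0 to 1 when an embryo was left out. Averages skipped blank probe sets, so averaged counts between tissues can reflect different probe sets. For MRPS33 the dimmer probe set was 7.71 in male and 7.86 in female gonads, and 7.39 and 7.45 in brain. The brighter one, blank in gonads, was 10.60 in male and 10.92 in female brain, so that its averages in gonads and brain are not comparable. Members higher in gonads than heart numbered 0 at a fold-change over 2, without MRPS16, or with all probe sets of a gene required to be called alike. They numbered 2 without a fold limit (3115 of 6991 among all genes), in males alone or in females alone, and 1 to 2 when an embryo was left out. Members lower in gonads than heart numbered 12 at a fold-change over 2 and 20 to 22 when an embryo was left out. Without a fold limit they numbered 45 of 57, against 2077 of 6991 among all genes. Members higher in heart than brain numbered 24 at a fold-change over 2 and 38 to 40 when an embryo was left out. Members lower in heart than brain numbered 0 with probe sets averaged, without MRPS16 or with probe sets required to be called alike. They numbered 2 without a fold limit (2224 of 6842 among all genes), and 1 when an embryo was left out. Members whose sex effect differed between gonads and brain numbered 1 with centring, a trended prior or probe sets averaged and 0 to 1 when an embryo was left out, and between gonads and heart 5 with centring, 8 with a trended prior and 1 to 4 when an embryo was left out. With the embryo as a replicate block these numbered 1 and 6, and the block changed no other count by over 1.5 times. The Z-linked minus autosomal median by sex was 0.98 in gonads and 0.69 in heart with probe sets averaged, and 0.97 to 1.19 in gonads, 0.66 to 0.88 in heart and 1.01 to 1.09 in brain when an embryo was left out. The causes of these shifts were not tested, apart from those that follow from a changed fold limit or fewer arrays. Low intensities, as for MRPL33, limit what can be seen. Counts at a fold-change over 2, and others given here without a share of all genes, were not compared with all genes.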
